A study of Mus musculus with 9 samples.

Results

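The core pluripotency genes that germ cells also use were followed through 9 RNA-seq libraries of differentiating mouse pluripotent stem cells (PSCs). The 9 genes were chosen by name as Pou5f1, Sox2, Sall4, Utf1, Dppa2, Dppa4, Dppa5a, L1td1 and Trim28. Each symbol matched 1 row of the deposited tables, out of 56691 genes, and all 9 were among the 16903 genes with enough counts to be tested. Every library came from embryoid bodies of the BVSC line, in which mVenus reports Blimp1 (BV) and CFP reports Stella. The cells held either a doxycycline-inducible Nrf1 vector (NRF1 OE) or the empty vector (Ctrl), and both received doxycycline at 1.5 µg/ml from day 2 to day 5. Cells were sorted by mVenus into BV+ cells, taken by the study as PGC-like cells, and BV- cells, taken as somatic. There were 2 libraries of BV+ NRF1 OE, 3 of BV- NRF1 OE, 2 of BV+ Ctrl and 2 of BV- Ctrl. The model is a single reporter line with an added vector. The study's methods describe the RNA-seq replicates as biological, but nothing in the labels says whether the libraries of a group came from separate cultures. The p-values thus measure only the spread between these libraries, which may be technical. Total counts per library ranged from 13702162 to 19625460, with a median of 17443624. The lowest count of any of the 9 genes in any library was 817, for Dppa2.

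Pluripotency rests on a small set of transcription factors that hold each other's genes active and keep differentiation genes off. OCT4, the product of Pou5f1, pairs with SOX2 on joint DNA sites, and SALL4 works beside them. Primordial germ cells (PGCs), the founders of sperm and eggs, keep or regain many of these genes, while somatic lineages shut them down. The other genes have different roles. UTF1 is a chromatin-bound factor of undifferentiated cells. DPPA2 and DPPA4 bind chromatin as a pair and open genes of the 2-cell embryo. DPPA5, encoded by Dppa5a, has an RNA-binding KH domain, L1TD1 is an RNA-binding protein derived from a LINE-1 element, and TRIM28 is the corepressor that KRAB zinc-finger proteins bring to retroelements.

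Upstream sequence was at hand for 5 of the 9 genes in the RefSeq promoter table (GRCm38.p6), and it is printed to show what these genes share at their starts. NRF1 is a transcription factor that binds GC-rich palindromic sites in promoters. Each stretch ran up to 250 bases before the annotated start and was stopped at the first GENCODE exon of the gene. All 5 lie on the + strand, 5′ to 3′. Capitals mark the GC box GGGCGG on either strand and the octamer-like ATGCAAA on either strand, counted without overlap. The positions were chr17:35505782-35506017 for Pou5f1, chr3:34649745-34649994 for Sox2, chr7:139943606-139943788 for Utf1, chr4:98726504-98726733 for L1td1 and chr7:13023902-13024151 for Trim28.
Pou5f1: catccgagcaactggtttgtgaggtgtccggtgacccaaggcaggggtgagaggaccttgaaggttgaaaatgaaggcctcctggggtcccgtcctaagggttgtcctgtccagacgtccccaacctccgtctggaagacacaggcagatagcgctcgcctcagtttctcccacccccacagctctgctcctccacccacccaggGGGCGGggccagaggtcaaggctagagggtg
Sox2: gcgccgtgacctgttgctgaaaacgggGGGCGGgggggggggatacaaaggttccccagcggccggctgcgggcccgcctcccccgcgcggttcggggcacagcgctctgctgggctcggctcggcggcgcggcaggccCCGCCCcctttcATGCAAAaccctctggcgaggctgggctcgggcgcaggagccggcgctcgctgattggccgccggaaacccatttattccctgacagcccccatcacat
Utf1: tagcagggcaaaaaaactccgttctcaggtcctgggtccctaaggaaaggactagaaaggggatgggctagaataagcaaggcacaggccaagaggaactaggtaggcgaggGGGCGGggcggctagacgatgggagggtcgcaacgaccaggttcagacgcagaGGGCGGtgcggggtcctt
L1td1: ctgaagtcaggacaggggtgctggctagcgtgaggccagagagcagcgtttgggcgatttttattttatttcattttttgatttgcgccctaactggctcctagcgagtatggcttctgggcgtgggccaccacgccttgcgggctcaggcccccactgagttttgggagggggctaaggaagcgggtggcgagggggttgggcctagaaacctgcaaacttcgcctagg
Trim28: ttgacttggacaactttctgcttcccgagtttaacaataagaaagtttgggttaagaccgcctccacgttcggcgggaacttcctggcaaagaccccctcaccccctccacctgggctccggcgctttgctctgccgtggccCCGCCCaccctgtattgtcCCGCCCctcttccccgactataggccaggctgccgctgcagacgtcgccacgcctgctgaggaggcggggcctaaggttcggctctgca
The GC box stood once before Pou5f1, 2 times before Sox2, 2 times before Utf1 and 2 times before Trim28, and was not found before L1td1. Over all 32851 promoters of the table, 32.74% held it in the 250 bases before the start. ATGCAAA stood once, before Sox2, and 4.12% of all promoters held it. The palindromic NRF1 site (GCGCA, any base, then GCGC), searched on both strands, was in 3.74% of all promoters and in none of these 5 stretches, which says only that those letters are not in these windows. The 5 stretches were GC-rich. The Sox2 stretch was 72.0% GC with 27 CpG dinucleotides, and the L1td1 stretch was 57.8% GC with 11, against a median of 52.4% GC and 6 CpG over all promoters.

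Before the genes, the labels were checked. Nrf1 itself stood at 90.4 and 91.1 CPM (counts scaled to library size) in BV+ Ctrl and at 95.7 and 99.4 in BV+ NRF1 OE, a log2 fold change of 0.10 ± 0.10 (SE, adjusted p = 0.489). In BV- it stood at 99.1 and 105 in Ctrl and between 119 and 126 in NRF1 OE (log2 0.26 ± 0.10, adjusted p = 0.0718). Every NRF1 OE library was thus above the Ctrl libraries of its population, but neither difference passed the test. The paper amplified the introduced Nrf1 cDNA from mouse PSCs, so reads of its coding sequence can align to the Nrf1 exons and be counted under Nrf1. How much of these values came from the vector was not tested. Prdm1, the gene behind the BV reporter, stood at 57.5 and 62.8 CPM in BV+ Ctrl and at 57.3 and 58.6 in BV- Ctrl. The libraries labelled BV+ and BV- thus overlapped in the transcript of this gene. The mVenus transcript of the reporter itself was not measured here. NRF1 OE, Ctrl, BV+ and BV- below are the names of the labelled libraries.

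The label of somatic cells was also set against marker lists. Summed over 14 naive pluripotency genes, BV- Ctrl libraries held 2174 to 2193 CPM and BV+ Ctrl libraries 2061 to 2140. Mesoderm markers summed to 19.3 to 20.5 CPM in BV- Ctrl and endoderm markers to 87.6 to 107.1, and neuroectoderm markers to 123 to 125. The defining genes T, Mixl1, Mesp1, Foxa2, Cer1 and Hes5 were each under 1 CPM in every library, while Sox17 reached 1.99 CPM, Afp 5.23 CPM and the neural factor Sox1 14.6 to 45.8 CPM. The libraries labelled BV- thus held naive pluripotency transcripts at or above the sums in BV+, although they are described as somatic. Within Ctrl, the mesoderm and neuroectoderm sums were lower in BV- than in BV+, and the endoderm sums were higher. The lists hold different genes, so the size of one sum against another does not show whether the cells were somatic. The plot of marker lists shows these sums side by side.

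**Figure D1:**
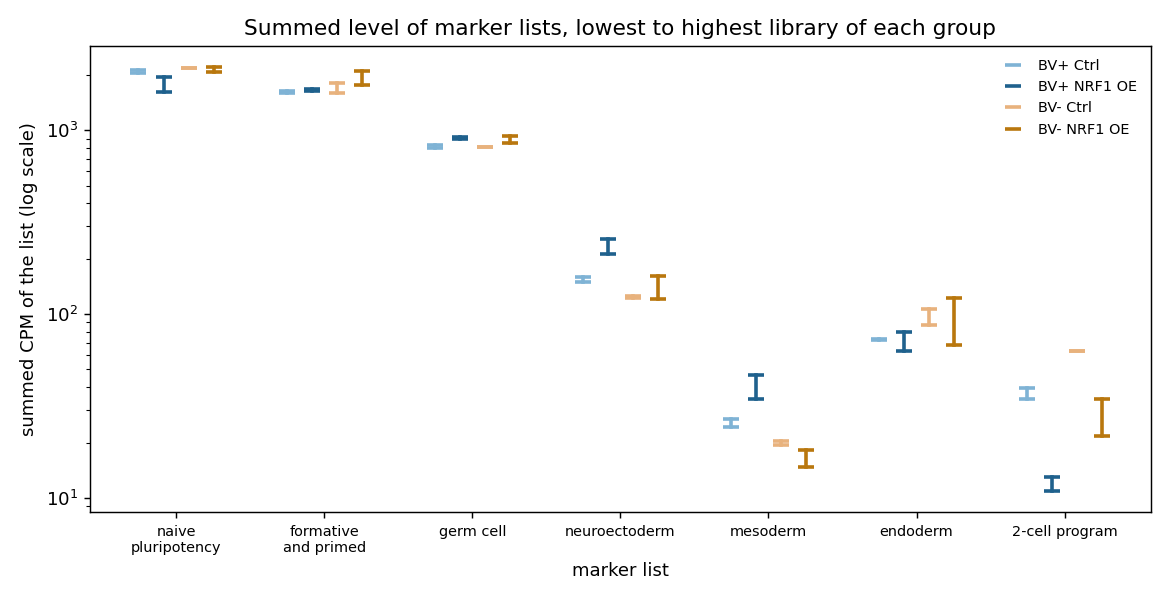
Summed CPM of each marker list (log scale), drawn from the lowest to the highest library of each group. Naive pluripotency genes sum to 1625 CPM or more in all 4 groups, whereas mesoderm genes sum to 14.7 to 46.8 CPM.

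In all 4 groups the 9 genes were among the abundant transcripts. On the length-corrected FPKM scale, Dppa5a was the highest of them everywhere, with group means of 1225 in BV+ NRF1 OE and 1760 in BV- NRF1 OE at the extremes. It ranked 13 among all genes in BV- Ctrl and 20 in BV+ NRF1 OE. Pou5f1 and Trim28 followed. In BV+ Ctrl they stood at 380 ± 22.6 (SD) and 367 ± 8.43 FPKM, and their libraries overlapped. Sox2 came next at 297 ± 10.0 FPKM in the same group, then Utf1 at 184, Dppa4 at 115, L1td1 at 108 and Sall4 at 43.1. Dppa2 was the lowest of the 9 in every group, with group means of 22.4 to 38.6 FPKM. The order was nearly the same in each group, but Trim28 and Pou5f1 changed places in BV+ NRF1 OE, and Utf1 and Sox2 in BV- NRF1 OE, both times with overlapping libraries.

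**Figure D2:**
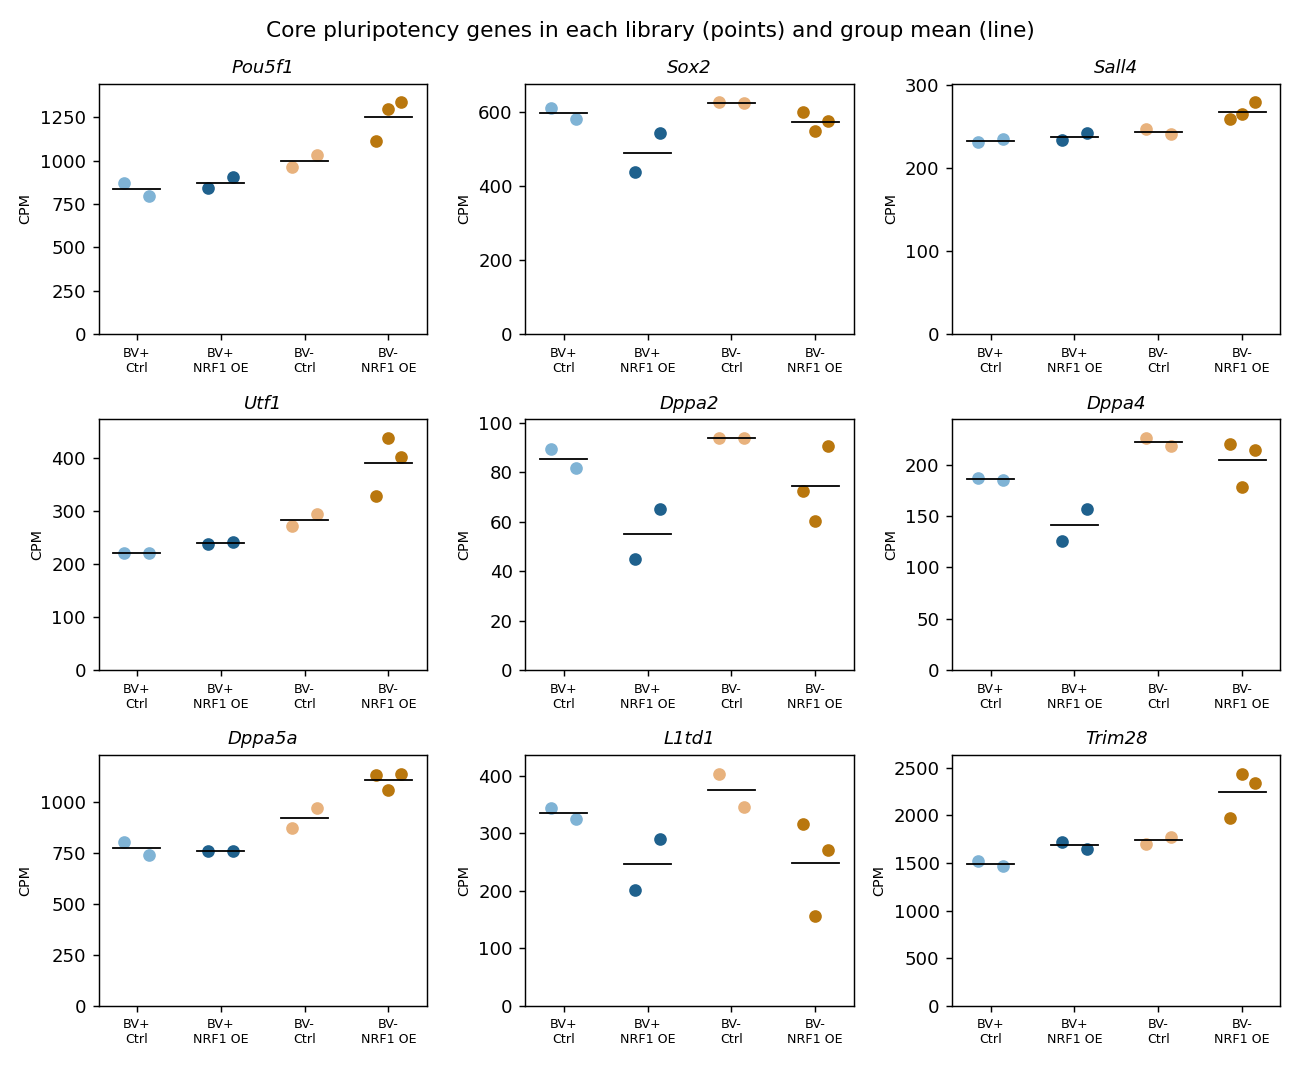
CPM of each gene in each library (points) by group, with the group mean as a line and the axis starting at 0. Sall4 varies least over the 9 libraries and L1td1 most, and the BV- NRF1 OE libraries are the highest for Pou5f1, Utf1, Dppa5a and Trim28.

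The spread over all 9 libraries separated steady from variable genes. Sall4 varied least, by 1.21-fold between the lowest and the highest library, and Sox2 by 1.44-fold. Dppa5a, Trim28 and Pou5f1 varied by 1.53-, 1.66- and 1.67-fold, Dppa4 by 1.80-fold, and Utf1 and Dppa2 by 1.99- and 2.09-fold. L1td1 varied most, by 2.57-fold, from 157 CPM in BV- NRF1 OE replicate 2 to 403 CPM in BV- Ctrl replicate 1.

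NRF1 OE was compared with Ctrl within BV+ cells to ask what enforced NRF1 does in the PGC-like population. None of the 9 genes passed an adjusted p of 0.05, whereas 8.02% of all genes tested did (6.24% higher and 1.78% lower). By unadjusted p, 3 of the 9 fell under 0.05 (all genes, 32.5%), each with the NRF1 OE libraries lower. These were Sox2, Dppa2 and Dppa4. DESeq2 on the same libraries called 1, Dppa2. The median log2 change of the 9 was -0.02, and that of all genes 0.04. Since these are bulk libraries, fewer cells expressing a gene and less RNA per cell cannot be told apart.

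Dppa2 had the largest difference of the 9 in BV+, and its partner Dppa4 also had a lower mean with NRF1 OE. Dppa2 stood at 81.8 and 89.4 CPM in BV+ Ctrl and at 45.0 and 65.0 CPM in BV+ NRF1 OE. Both NRF1 OE libraries lay below both Ctrl libraries, with a log2 change of -0.64 ± 0.20 (SE) and an adjusted p of 0.0656. For its partner Dppa4, the Ctrl libraries held 185 and 187 CPM and the NRF1 OE libraries 125 and 157 CPM, a log2 change of -0.40 ± 0.14 with an adjusted p of 0.0841. In each gene NRF1 OE replicate 1 was the lowest of all 9 libraries. Dppa4 over Dppa2 in FPKM was 3.08 and 3.34 in BV+ Ctrl and 3.57 and 4.10 in BV+ NRF1 OE, but with offsets for GC content and length, described below, the changes of the 2 genes were nearly equal (-0.44 for Dppa2 and -0.46 for Dppa4).

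Among the core transcription factors, Sox2 was at 582 and 611 CPM in BV+ Ctrl and at 436 and 543 CPM in BV+ NRF1 OE, a log2 change of -0.28 ± 0.12 with an adjusted p of 0.121. Its groups did not overlap, as for 32.0% of all genes in that direction, but NRF1 OE replicate 2 lay nearer to the Ctrl libraries than to its own replicate. Pou5f1 was at 798 and 870 CPM in Ctrl and at 841 and 905 CPM in NRF1 OE. These groups overlapped, and the interval of the log2 difference ran from -0.18 to 0.31 (95%). Sall4 held 232 and 235 CPM in Ctrl and 234 and 243 CPM in NRF1 OE, with an interval of -0.18 to 0.24. A change of Sall4 by more than 0.24 on the log2 scale in either direction thus lay outside its interval.

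Of the other genes in BV+, the RNA-binding factor L1td1 stood at 325 and 343 CPM in Ctrl and at 201 and 290 CPM in NRF1 OE, a log2 change of -0.44 ± 0.26 with an adjusted p of 0.250. Utf1 was at 220 and 221 CPM in Ctrl and at 237 and 242 CPM in NRF1 OE, with an interval of -0.17 to 0.40. Trim28 was at 1466 and 1517 CPM in Ctrl and at 1649 and 1724 CPM in NRF1 OE, with an interval of -0.06 to 0.42. The Ctrl and NRF1 OE libraries of Utf1 and Trim28 did not overlap, as for 38.1% of all genes in that direction. Dppa5a held 744 and 803 CPM in Ctrl and 760 and 762 CPM in NRF1 OE, and its log2 difference of -0.02 had an interval of -0.24 to 0.19. The count of called genes in BV+ depended on which library was left out. Without BV- NRF1 OE replicate 2 it was 4 (Sox2, Dppa2, Dppa4 and L1td1), all lower. In that fit 4957 of all genes were called, against 1355 with all libraries, so the shift was not particular to these genes.

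**Figure D3:**
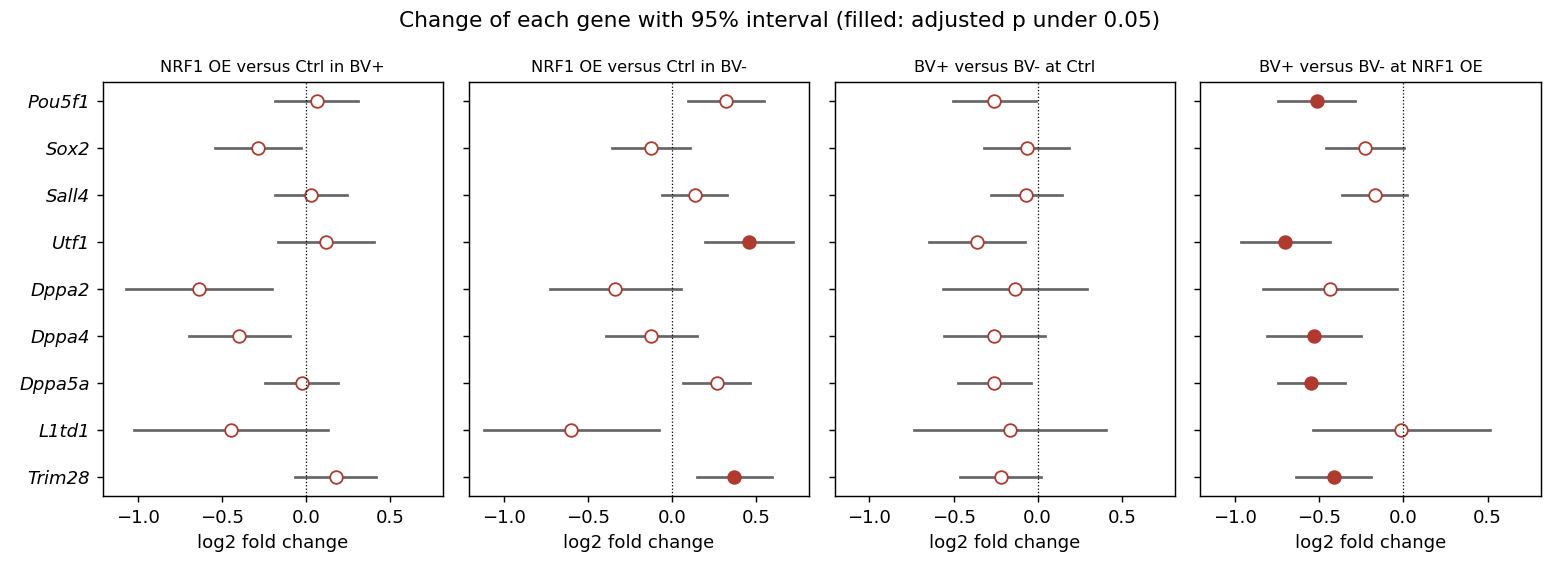
Log2 fold change of each gene in 4 comparisons, with its 95% interval and filled points where the adjusted p was under 0.05. Filled points appear for Utf1 and Trim28 in BV- (higher with NRF1 OE) and for 5 genes lower in BV+ than in BV- at NRF1 OE.

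In BV- cells the same comparison gave higher levels of Utf1 and Trim28 when no GC offsets were used. With the GC and length offsets described below both estimates were under 0 (-0.13 and -0.06) and neither passed. Without offsets these 2 of 9 genes passed the test, both upward, whereas 17.2% of all genes tested passed (10.2% higher and 6.98% lower). By unadjusted p, 5 of the 9 were under 0.05, and 39.1% of all genes. Utf1 stood at 273 and 294 CPM in BV- Ctrl and at 329, 438 and 402 CPM in BV- NRF1 OE, a log2 change of 0.46 ± 0.12 (SE, adjusted p = 0.0354). Trim28 stood at 1700 and 1772 CPM in Ctrl and at 1976, 2436 and 2334 CPM in NRF1 OE, a change of 0.37 ± 0.10 (adjusted p = 0.0374). In both genes every NRF1 OE library was above every Ctrl library, and replicate 1 was the nearest to Ctrl. Both calls were lost without BV- NRF1 OE replicate 3 or any 1 of the 4 Ctrl libraries, BV+ Ctrl included, and in those fits 0 to 35 genes of the whole table were called. The changes themselves stayed between 0.34 and 0.57 for Utf1 and between 0.29 and 0.46 for Trim28 over all left-out libraries. Of the 2 calls, that of Trim28 was also lost without BV- NRF1 OE replicate 2. Without BV- NRF1 OE replicate 1 there were 4 calls, with Pou5f1 added as higher and L1td1 as lower. In that fit 5847 of all genes were called, against 2910 with all libraries.

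Pou5f1 and Dppa5a lay just outside the threshold in BV-. Pou5f1 was at 962 and 1034 CPM in Ctrl and at 1113, 1298 and 1336 CPM in NRF1 OE, a log2 change of 0.32 ± 0.10 with an adjusted p of 0.0514. Dppa5a was at 876 and 971 CPM in Ctrl and at 1137, 1059 and 1141 CPM in NRF1 OE, a change of 0.27 ± 0.09 with an adjusted p of 0.0586. For Sall4 the libraries held 247 and 242 CPM in Ctrl and 260, 266 and 280 CPM in NRF1 OE, and its interval was -0.06 to 0.33. In all, 5 of the 9 had every NRF1 OE library above Ctrl and 3 had every one below (all genes, 29.4% and 27.6%).

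Sox2, Dppa2, Dppa4 and L1td1 had lower means with NRF1 OE in BV-, and none of them passed in edgeR. DESeq2 on the same libraries called 3 of the 9 genes, 2 as higher and L1td1 as lower. L1td1 had the largest difference, from 403 and 346 CPM in Ctrl to 315, 157 and 271 CPM in NRF1 OE, a log2 change of -0.60 ± 0.24 with an adjusted p of 0.0889. The NRF1 OE replicates were far apart here, and replicate 1 lay nearer to Ctrl replicate 2 than to NRF1 OE replicate 3. Dppa2 was at 94.0 and 93.9 CPM in Ctrl and at 72.4, 60.2 and 90.6 CPM in NRF1 OE (interval -0.73 to 0.06). Sox2 was at 626 and 622 CPM in Ctrl and at 598, 547 and 575 CPM in NRF1 OE (interval -0.35 to 0.11). Dppa4 was the only one of the 9 whose groups overlapped, at 226 and 219 CPM in Ctrl and 221, 178 and 215 CPM in NRF1 OE.

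Transcript GC content moved with these differences. Libraries of the NRF1 OE and Ctrl groups differed in how their counts depended on GC content. The Spearman correlation across 12702 genes between GC content and the deviation of a library from the mean of all libraries was -0.60 to -0.51 in the 4 Ctrl libraries. In NRF1 OE it was 0.33 and -0.005 in BV+ and 0.06, 0.70 and 0.58 in BV- (replicates 1 to 3). Genes are not independent replicates, so these are descriptions. Of the 9 genes, Utf1 (63.5% GC), Trim28 (59.6%), Pou5f1 (57.6%) and Sall4 (53.8%) had the GC-richest transcripts, and Dppa2 (43.6%) and L1td1 (47.8%) the poorest.

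Where each library was fitted with offsets for GC content and length, the NRF1 OE differences of Pou5f1, Sall4, Utf1 and Trim28 turned from higher to lower in both populations. In BV+, Utf1 went to -0.38 ± 0.09 (adjusted p = 0.0270), Sox2 to -0.39 ± 0.10 (adjusted p = 0.0323) and Dppa4 to -0.46 ± 0.11 (adjusted p = 0.0290). These 3 of 9 genes then passed as lower, where 4.24% of all genes did. With a replicate block added to the offsets none of the 9 passed, and Utf1 was at -0.39 with an adjusted p of 0.0578. Dppa2 went to -0.44 ± 0.16 with an adjusted p of 0.0815. In BV- the rise of Utf1 became -0.13 ± 0.08 and that of Trim28 -0.06 ± 0.06, and none of the 9 passed, where 4.06% of all genes did. The directions of Sox2, Dppa2, Dppa4 and L1td1 were lower in both populations with and without these offsets. What in the cells or the libraries set the GC trend was not tested.

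**Figure D4:**
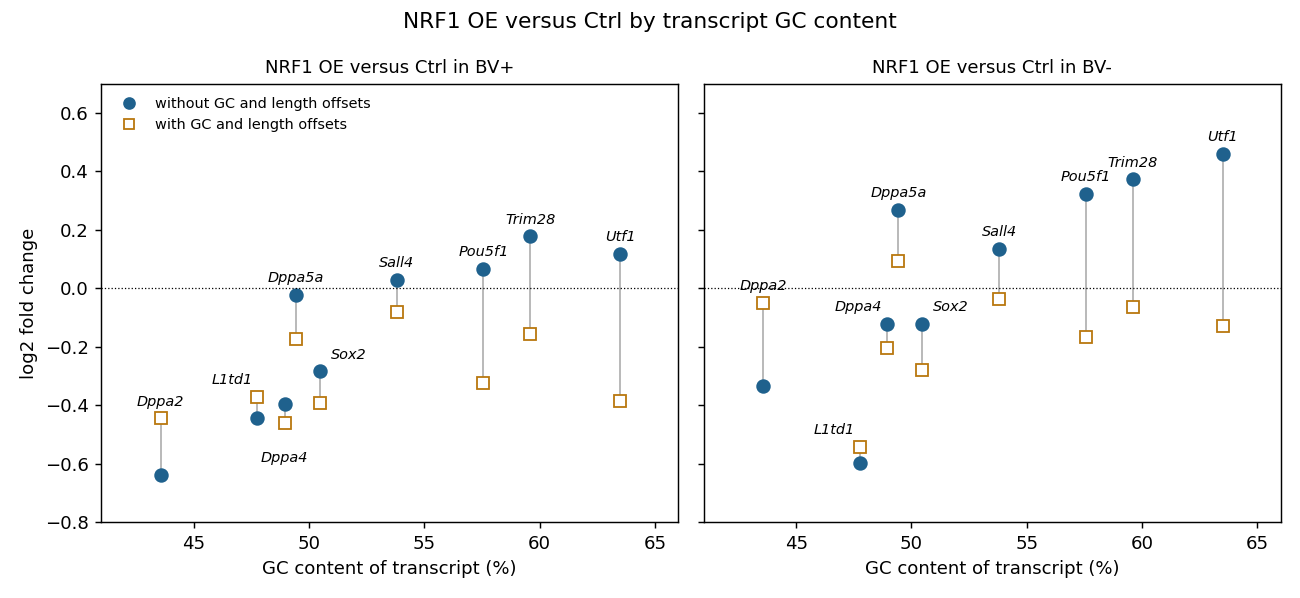
Log2 fold change of NRF1 OE versus Ctrl for each gene against the GC content of its transcript in percent, in BV+ (left) and BV- (right), without (circles) and with (squares) GC and length offsets. Without offsets the GC-rich transcripts of Utf1, Trim28 and Pou5f1 lie above 0 and with offsets below it.

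BV+ and BV- cells were compared within Ctrl to ask whether the sorted PGC-like cells differ in these genes. No gene of the 9 passed edgeR's test, and 1.12% of all genes did (1.10% higher and 0.0237% lower). At an unadjusted p, 3 of 9 were under 0.05 (Pou5f1, Utf1 and Dppa5a), as were 7.77% of all genes, and DESeq2 on the same libraries called none. All 9 genes were lower in both BV+ Ctrl libraries than in both BV- Ctrl libraries, whereas 25.4% of all genes were so placed. The differences were small, and the median of the 9 was -0.22 on the log2 scale beside -0.01 for all genes. Utf1 had the largest, at -0.36 ± 0.13 (adjusted p = 0.410), and Sox2 the smallest, at -0.07 ± 0.12. With GC and length offsets all 9 stayed below 0, with a median of -0.15.

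The same comparison was made at NRF1 OE. In these libraries 5 of 9 genes were called lower in BV+ than in BV-, whereas 3.85% of all genes were lower and 9.90% higher. By unadjusted p, 6 of the 9 were under 0.05 (all genes, 28.2%), and 7 of the 9 had all BV+ libraries below all BV- libraries (all genes, 19.5% below and 20.3% above). Nrf1 was itself lower in BV+ NRF1 OE than in BV- NRF1 OE (-0.33 ± 0.10, adjusted p = 0.0431), and its part in these differences was not tested. Dppa5a was at 762 and 760 CPM in BV+ and at 1137, 1059 and 1141 CPM in BV-, a log2 difference of -0.55 ± 0.09 (SE, adjusted p = 0.00218). Utf1 was at 237 and 242 CPM in BV+ against 329, 438 and 402 CPM, a difference of -0.70 ± 0.12 (adjusted p = 0.00262). These 2 genes passed under all 20 alternative settings tried, among them each left-out library, the GC offsets (-0.41 for Dppa5a and -0.49 for Utf1) and the fits on only these 2 groups.

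Pou5f1, Dppa4 and Trim28 were also called lower. Pou5f1 held 841 and 905 CPM in BV+ and 1113, 1298 and 1336 CPM in BV-, a difference of -0.52 ± 0.10 (adjusted p = 0.00712). Dppa4 held 125 and 157 CPM in BV+ and 221, 178 and 215 CPM in BV-, a difference of -0.53 ± 0.13 (adjusted p = 0.0168). Trim28 differed by -0.42 ± 0.10 (adjusted p = 0.0191), with 1724 and 1649 CPM in BV+ below all 3 libraries of BV-. Without BV+ NRF1 OE replicate 1 or without BV- NRF1 OE replicate 3, only Utf1 and Dppa5a of the 9 were still called, and Trim28 was also lost without BV+ NRF1 OE replicate 2. All 3 kept their calls with GC and length offsets, and Dppa2 joined them at -0.55 ± 0.15 (adjusted p = 0.0199). With a replicate block all 3 lost them, at adjusted p of 0.0634 for Pou5f1, 0.118 for Dppa4 and 0.126 for Trim28, and with block and offsets together 2 of the 9 passed, Utf1 and Dppa5a.

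The remaining 4 genes did not pass at NRF1 OE. Sox2 differed by -0.23 on the log2 scale (interval -0.46 to 0.005) and Sall4 differed by -0.17 (interval -0.37 to 0.02), with no overlap of the libraries in either. Dppa2 differed by -0.44 ± 0.18 (adjusted p = 0.143), and BV+ replicate 2 (65.0 CPM) lay above BV- replicate 2 (60.2 CPM). L1td1 differed by -0.01 with a wide interval of -0.54 to 0.51. In BV- NRF1 OE its replicate 2 was the lowest of all libraries, and without it the difference was -0.22. Over all left-out libraries the value ran from -0.30 without BV+ replicate 2 to 0.23 without BV+ replicate 1, so its direction was not settled.

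Whether NRF1 OE acted differently in the 2 populations was tested as the difference of the log2 changes. None of the 9 genes passed in edgeR, and 0% of all genes did. No member reached an unadjusted p under 0.05 either, though 5.51% of all genes did, and DESeq2 called none of the 9 and 22 genes in all. The estimate was below 0 for 8 of the 9 and above 0 for L1td1. It was -0.29 ± 0.13 for Dppa5a, with an interval of -0.58 to 0.003, and -0.34 ± 0.18 for Utf1. So the calls in BV- and their absence in BV+ do not show that the populations responded differently. The 4 comparisons share libraries, and the differences named above are not independent of each other.

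Genes around the core factors were counted by list. Of 14 naive pluripotency genes, 2 fell with NRF1 OE in BV+ (all genes, 1.78%), Zfp42 (-0.67) and Klf4 (-0.67), both transcription factors of the naive state. In BV- 3 fell, Zfp42 (-0.53), Klf4 (-0.63) and Tbx3 (-0.84), and 2 rose, Klf2 (0.39) and Esrrb (0.39), where 6.98% of all genes fell and 10.2% rose. With GC and length offsets the 3 that fell in BV- still passed, while neither of the others did (-0.13 for Klf2 and 0.13 for Esrrb). At NRF1 OE, Tbx3 was higher in BV+ than in BV- by 1.15 on the log2 scale and 4 genes were lower (all genes, 9.90% higher and 3.85% lower). Among the 4 was Gdf3 (-0.55), a TGF-beta family ligand. Of 13 formative and primed genes none passed in BV+ and Lefty1, an inhibitor of NODAL, rose in BV- (0.76), a call that was lost with GC and length offsets (0.27, adjusted p = 0.153). At NRF1 OE, Sall2 was higher in BV+ (0.80), and Etv4 (-0.66), Otx2 (-0.43) and 2 more were lower. Leaving out 1 library at a time moved the naive counts between 0 and 6 genes lower in BV+ and between 0 and 4 lower in BV-.

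Germ cell genes that moved with NRF1 OE were higher. Of 12 on that list, 3 rose with NRF1 OE in BV+ (all genes, 6.24%). Among them were Dppa3 (Stella, the gene of the second reporter), from 58.5 to 91.5 mean CPM (log2 change 0.64 ± 0.14, adjusted p = 0.0252), Itgb3 (1.02) and Fut4 (1.45). The product of Itgb3 is a surface antigen used to sort PGCs. In BV- 5 rose (all genes, 10.2%), among them Dppa3 (0.84) and Nanos3 (1.02), an RNA-binding protein of PGCs. With GC and length offsets 4 rose in BV+ and 2 in BV- (all genes, 7.38% and 2.38%). In BV- Dppa3 then still passed (0.94) and Nanos3 did not (0.51, adjusted p = 0.133). Between the populations at NRF1 OE, Fut4 (2.42) and Itgb3 (1.24) were higher in BV+, and Dppa3 (-0.65) and Nanos3 (-1.04) were lower. Leaving out 1 library at a time gave 0 to 5 higher and 0 to 2 lower germ cell genes in each population. Of 12 tested paralogs of OCT4, SOX2 and SALL4, none passed with NRF1 OE in BV+. Pou2f2 fell in BV- from a mean of 10.3 to 5.06 CPM (all genes, 6.98% lower). Sox1 (0.93) and Sall2 were higher in BV+ than in BV- at NRF1 OE (all genes, 9.90% higher). Both of the higher paralogs are also on other lists, Sox1 on that of neuroectoderm and Sall2 on that of primed cells.

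Partners of the other members were read in the same way. Of 16 TRIM28 partners, 2 fell in BV+ with NRF1 OE (all genes, 1.78%), the imprint-protecting KRAB protein Zfp57 (-0.73) and the TRIM28 relative Trim24 (-0.71). In BV- 6 fell and 1 rose (all genes, 6.98% and 10.2%), with Trim33 (-0.81) and the heterochromatin protein gene Cbx5 (-0.59) among those that fell. With GC and length offsets this became 3 lower in BV+ and 1 lower in BV- (all genes, 4.24% and 1.68%). The 1 in BV- was Zfp57 (-0.43, adjusted p = 0.0451), with Trim33 at -0.28 (adjusted p = 0.0621) and Cbx5 at 0.01 (adjusted p = 0.913). With 1 library left out the lower counts ran from 0 to 7 in BV+ and from 0 to 8 in BV-. RNA-binding partners of L1TD1 included Lin28a and Lin28b, which block let-7 maturation. Of the 8 partners tested, 2 were higher in BV+ than in BV- at NRF1 OE (all genes, 9.90%), Lin28a (0.43, adjusted p = 0.0155) and Lin28b (1.63). With GC and length offsets Lin28b was also higher in BV+ at Ctrl (0.86, adjusted p = 0.0113). In BV- Ddx6 fell (-0.38) and Rbm14 rose (0.35) with NRF1 OE, and with GC and length offsets neither passed (0.11 for Ddx6, now above 0, and -0.002 for Rbm14). Of 7 genes of the oocyte KH family, relatives of Dppa5a, 3 were tested. Khdc3 (-0.81) and Ooep (-0.39) were lower in BV+ than in BV- at NRF1 OE (all genes, 3.85% lower). Of these, Khdc3 lost its call with the offsets (-0.63, adjusted p = 0.0858).

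The 2-cell embryo genes, which DPPA2 and DPPA4 switch on through DUX, had the highest share of called genes of the lists counted here. Of 14 genes on the list, 13 were in the tables and 11 were tested. With NRF1 OE, 9 of 11 fell in BV+ and 9 of 11 fell in BV- (all genes, 1.78% and 6.98%). At NRF1 OE 8 of 11 were lower in BV+ than in BV- (all genes, 3.85%). The list medians were -1.66, -1.17 and -1.20 on the log2 scale. Zscan4d, the most abundant, stood at 8.52 and 9.28 CPM in BV+ Ctrl and at 2.78 and 2.83 CPM in BV+ NRF1 OE, a change of -1.66 ± 0.29 (adjusted p = 0.0149). In BV- it stood at 16.1 and 16.3 CPM in Ctrl and at 9.21, 4.49 and 5.51 CPM in NRF1 OE, a change of -1.33 ± 0.24 (adjusted p = 0.0317). Zscan4b (-2.16), Zscan4f (-2.06), Zscan4a (-2.01) and Usp17la (-1.90) were the genes of this list with the largest called changes under the naming rule, all in BV+. Zscan4 and Usp17l genes are near-identical copies, so reads may be split among them and the members are not separate measurements.

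Dux itself, listed as Duxf3, was too low to test. The list's counts moved between fits more than its medians did, and so did the calls over all genes. Without BV+ NRF1 OE replicate 1 or either BV+ Ctrl library the BV+ medians were -1.56, -1.75 and -1.60. In BV- none was called without BV- NRF1 OE replicate 3, where 35 of all genes were. Without that library or any 1 of the 4 Ctrl libraries the BV- medians were -1.33 to -1.13. Between the populations at NRF1 OE the medians were -1.19 and -1.27 without BV+ NRF1 OE replicate 1 or 2. With a replicate block 0 of the 11 were called in BV+ and 0 in BV-, where 3 and 0 of all genes were. The medians were then -1.67 and -1.12. With the block 4 of the 11 were lower in BV+ than in BV- at NRF1 OE, as were 95 of all genes. With GC and length offsets 9 and 6 genes fell in BV+ and BV- (all genes, 4.24% and 1.68%), and 7 were lower in BV+ at NRF1 OE (all genes, 5.96%). Beside these medians, the differences of Dppa2 and Dppa4 with NRF1 OE were -0.64 and -0.40 in BV+ and -0.34 and -0.12 in BV-.

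**Figure D5:**
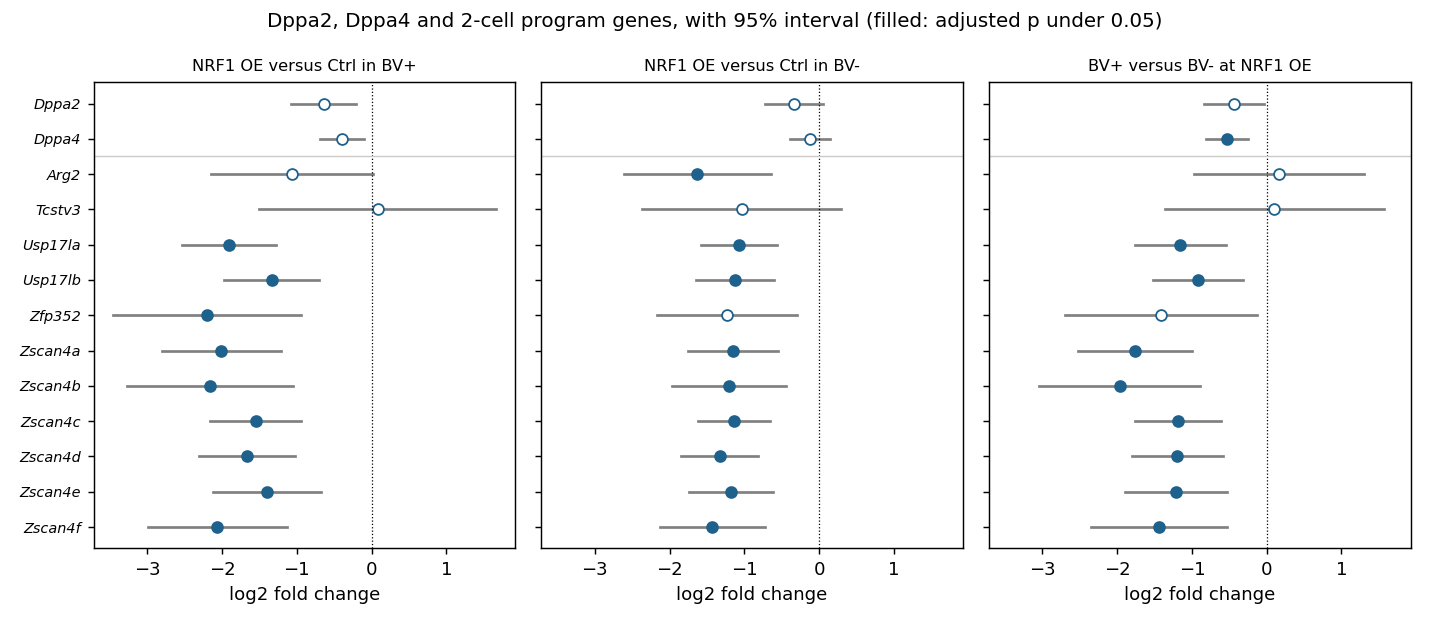
Log2 fold change with 95% interval of Dppa2 and Dppa4 (above the line) and of the 11 tested 2-cell program genes, filled where the adjusted p was under 0.05. With NRF1 OE 9 of 11 are filled and below 0 in BV+ and in BV-, whereas Dppa2 and Dppa4 are open in both.

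Some markers of other lineages differed between the populations at NRF1 OE. Of those tested, 3 of 8 mesoderm genes and 2 of 8 neuroectoderm genes were higher in BV+ (all genes, 9.90%). Of 11 endoderm genes 3 were lower (all genes, 3.85%). Kdr, a receptor of mesoderm and endothelium, was higher in BV+ than in BV- (3.73 on the log2 scale), as were Hand1 (4.11) and Nes (2.96), an intermediate filament of neural progenitors. Kdr and Nes were already higher in BV+ at Ctrl (1.75 and 1.94), and both rose with NRF1 OE in BV+ (1.49 and 1.60). The liver-type endoderm genes Apoa1 (-2.70), Ttr (-2.27) and Afp (-1.56) were lower. Summed neuroectoderm markers were 213 to 256 CPM in BV+ NRF1 OE and 121 to 161 CPM in BV- NRF1 OE, and mesoderm markers 34.3 to 46.8 CPM and 14.7 to 18.2 CPM. Summed endoderm markers overlapped, at 63.2 to 80.2 CPM and 67.6 to 123 CPM. In BV- with NRF1 OE, Gata6, an endoderm factor, fell (-1.08). The part of these markers in the lower levels of Pou5f1, Utf1, Dppa4, Dppa5a and Trim28 in BV+ NRF1 OE was not tested.

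The genes whose library profile was most like that of a core factor were sought among 9503 genes with a mean of at least 10 CPM. Likeness was the root mean square difference of centred log2 CPM over the 9 libraries. For Pou5f1 these were Anxa11 (0.040), Asf1b (0.045) and Rfc5 (0.047), where Pou5f1 itself deviated from its own mean by 0.25. For Sox2 they were Afg3l2 (0.026), Uba2 (0.028) and Cmtm4 (0.032), where Sox2 deviated by 0.15. None of the other 8 core genes was among the 3 nearest of either. In the GENCODE M21 annotation, exons of Pou5f1 overlap Gm19553 and exons of Sall4 overlap Gm14261, each on the opposite strand, and the reads of such pairs cannot be told apart because the strand setting of the counting was not stated.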

How the data were processed

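Poly(A) RNA-seq libraries of sorted BV+ and BV- cells were analysed from the deposited gene tables. Per the study's methods, reads were trimmed with Cutadapt, HISAT2 2.0.1 placed them on GRCm39, and HTSeq 0.6.1 gave gene-level counts. The authors deposited raw counts per gene, which are not normalized, and FPKM derived from the same counts. Counting error is small at these depths (13702162 to 19625460 counts), so precision was set by the number of libraries.

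Counts were fitted in one model of 4 groups over the 9 libraries with the quasi-likelihood test of edgeR 4.0.16 (R 4.3.3), TMM scaling and the default filter on low counts, which left 16903 genes. The fold changes of 5 comparisons were tested, p-values were Benjamini-Hochberg adjusted over all genes tested, and a gene was called at an adjusted p under 0.05. CPM are counts scaled to library size with TMM factors. FPKM were used only for levels between genes. A self-test on simulated data without a GC trend found most of the planted changes. These were larger than any change of the 9 genes, so it does not show that changes of their size would be found. DESeq2 1.42.0, other scalings, filters, a replicate block, GC and length offsets and each left-out library were alternatives. GC content and length came from GENCODE M21 (GRCm38), matched for 98.6% of genes tested.

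The 9 genes and the lists were chosen with earlier results of these data known, so no pattern here is independent support. Other genes were named by rule. From each list these were up to 4 called genes with the largest change and a mean of at least 1 CPM, from each of Pou5f1 and Sox2 the 3 genes of most similar profile, and Nrf1 and Prdm1. Zscan4d, Klf2, Esrrb, Dppa3 in BV+, genes named again in a second comparison and the germ-layer genes of the label check were named after their values were seen. Replicates of a group differed beyond counting noise (chi-square per degree of freedom 2.80 to 30.9), so none was counted as a duplicate. Other assays of the study were not analysed here.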

Additional observations from a re-analysis of the deposited data

How the results depend on the processing

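Of 891 refits of single genes, 783 kept the direction and the side of the threshold, 40 gained a call, 34 lost one and 34 changed sign. In BV+, NRF1 OE gave 0 calls among the 9 genes. It gave 1 with DESeq2 on the same libraries or upper-quartile scaling, and 3 with DESeq2 or edgeR on only the groups compared, no filter on low counts, or GC and length offsets. Leaving out 1 library gave 0 to 4. In BV- the 2 calls became 3 with DESeq2 on the same libraries and 4 with no filter. They became 0 with DESeq2 or edgeR on only the groups compared or GC and length offsets. Leaving out 1 BV- NRF1 OE library gave 0 to 4. BV+ versus BV- at Ctrl went from 0 to 2 with DESeq2 and 4 with edgeR on only the groups compared, and stayed at 0 whichever library was left out. At NRF1 OE the 5 calls became 3 with DESeq2 or edgeR on only the groups compared, and 2 to 6 when 1 library was left out. The difference of the NRF1 OE effects gave 0 calls under each of its 18 alternatives. The cause of these shifts was not tested, but fits on only the groups compared and those without a library rest on fewer samples.

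Replicate numbers are shared between groups, but the deviations of same-numbered libraries correlated only at -0.30 to 0.24, so the numbers were not taken as pairs. In a group of 2 libraries the deviations from the group mean mirror each other. These correlations are therefore not all separate, and they do not settle whether libraries shared a culture. A replicate block gave 0 calls in BV+ and 0 in BV- (0 in each with GC and length offsets too) and 2 for BV+ versus BV- at NRF1 OE (2 with offsets too). Crossing the numbers in the 4 Ctrl libraries, added after seeing the data, gave 6 calls for BV+ versus BV- and 2079 over all genes.

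Several small differences changed sign. With NRF1 OE in BV+, Sall4 became -0.0088 with library size alone, -0.0039 with upper-quartile scaling, -0.014 with edgeR on only the groups compared and -0.083 with GC and length offsets (-0.082 with the replicate block as well). Dppa5a became 0.017 at a mean of at least 10 counts and ran from -0.078 to 0.035 when 1 library was left out. With GC and length offsets, and then with the replicate block as well, BV+ values were -0.32 and -0.33 for Pou5f1, -0.38 and -0.39 for Utf1 and -0.16 and -0.16 for Trim28. In BV- they were -0.17 and -0.23 for Pou5f1, -0.036 and -0.042 for Sall4, -0.13 and -0.16 for Utf1 and -0.063 and -0.082 for Trim28. L1td1 in BV+ versus BV- at NRF1 OE became 0.016 with library size alone, 0.022 at a mean of at least 10 counts, 0.020 with edgeR on only these groups, 0.11 with the replicate block, 0.012 with offsets and 0.11 with both. It ran from -0.30 to 0.23 when 1 library was left out, and its difference between the NRF1 OE effects from -0.14 to 0.39.

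Over all genes, NRF1 OE in BV+ gave 1355 calls (77.8% higher), with 0 to 4957 when 1 library was left out, 3 with the replicate block and 4371 with edgeR on only the groups compared, and 60.2% were higher with upper-quartile scaling. In BV- there were 2910 (59.5% higher), with 0 to 5847 when 1 library was left out, 0 with the replicate block, 4392 without a filter, and 45.1% higher with library size alone. BV+ versus BV- gave 190 at Ctrl (31 to 484 when 1 library was left out) and 2325 at NRF1 OE (786 to 3182).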
